A study of Mus musculus with 12 samples.

Results

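The 6 RNA-Seq libraries of batch 1 were compared by the replicate number in their labels. The 3 libraries numbered 1 were set against the 3 numbered 2, with treatment as a block. These are 6 of the 12 libraries of the series, and the other 6 form batch 2. Each number held 1 library without siRNA, 1 that received siControl, a non-targeting pool of short interfering RNAs, and 1 that received siSbsn, a pool directed against *Sbsn*. All 6 came from primary keratinocytes of newborn BALB/c mice, grown at 0.05 mM calcium and then differentiated at 0.12 mM. Per the methods, 75 pmol of siRNA was added 24 hours after seeding, and RNA was collected 48 hours later. The labels do not say what the numbers stand for, whether 1 and 2 were different cultures, litters or days, or whether equal numbers in different treatments share a source. The p-values measure only the spread between these libraries, which may be technical. Fewer cells of a type and less RNA per cell cannot be told apart in such bulk samples.

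Keratinocytes form the epidermis. Basal cells attach to the basement membrane and express *Krt5* and *Krt14*. On raised calcium they stop dividing and begin the suprabasal programme, first with *Krt1* and *Krt10* and later with precursors of the cornified envelope, while lipid and cholesterol synthesis supply the barrier. Cultured keratinocytes also express the wound keratins *Krt6a*, *Krt16* and *Krt17*, and they respond to ligands of the EGF receptor.

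Total counts in batch 1 ranged from 30724400 to 45056003. *Krt17*, a wound keratin, took the largest share of the counts in every library, between 1.85% and 4.51%, with the highest share in siControl number 1. The targeted gene *Sbsn*, which encodes suprabasin, was at 1600 CPM (counts per 1000000 counts of the normalised library) in the library without siRNA numbered 1 and at 1170 in that numbered 2. With siControl its level was 1170 and 1290 CPM, and it was 1850 CPM in the library labelled siSbsn number 1 and 661 CPM in the library labelled siSbsn number 2. The library labelled siSbsn number 1 thus lay above all 4 libraries without siSbsn, against its label, and the treatment names below are those of the labels. Keratinocyte markers summed to 48400 to 59500 CPM in number 1 and to 34900 to 42400 CPM in number 2. The fibroblast markers summed to 1020 and 1260 CPM in the number 1 libraries without siRNA and labelled siSbsn, to 485 CPM in siControl number 1, and to 466 to 545 CPM in number 2. None of the 9 fibroblast markers was called by edgeR. The sum for melanocytes was 422 to 618 CPM in number 1 and 508 to 545 in number 2, and that for immune cells at most 15.1 CPM, with the Langerhans cell marker *Cd207* at 0. The 4 nerve and glia markers summed to 77.9 to 80.8 CPM in number 1 and to 94.2 to 103 CPM in number 2, without overlap. They did not move together. Of the 3 tested, 1 was higher and 1 lower in number 1 in all 3 treatments, and none was called. The part of other cell types in the differences below was not tested, except where values are given.

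Number 1 and number 2 differed at loci of several pathways, with more of them higher in number 1 than lower. Of 13176 loci tested, 210 (1.59%) were called higher in number 1 and 84 (0.638%) lower. A call needed q (Benjamini-Hochberg, edgeR's quasi-likelihood test) under 0.05 and a log2-fold change beyond 0.5 either way. The calls sat close to the threshold, with q-values from 0.0427 to just under 0.05, and 3873 loci had an unadjusted p under 0.05. All 294 called loci (2.23%) differed the same way in all 3 treatments, which 28.8% of the loci tested did upwards and 27.1% downwards. A difference over 0.5 in each treatment was found at 379 loci (2.88%) upwards and 255 (1.94%) downwards. In 188 of the 210 loci called higher every number 1 library lay above every number 2 library, as it did at 13.1% of all loci, and in 62 of the 84 called lower every number 1 library lay below, against 12.3%. Called loci had to be alike across treatments to be called, so these counts describe the calls.

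The 3 within-treatment differences share no library. Across the 13176 loci, the difference without siRNA correlated with that of siSbsn at Pearson r = 0.82, with that of siControl at 0.38, and siControl with siSbsn at 0.46. Loci are not independent replicates. Number accounted for 31.8% of the variance of log2 CPM over the 6 libraries, treatment for 52.0%, and the remainder for 16.2%. On the second principal component, which held 28.5% of the variance, the number 1 libraries lay between 2.95 and 32.3 and the number 2 libraries between -23.9 and -8.00. The first component held 64.0% and set siControl number 1, at 66.4, apart from the other 5, at -21.7 to 6.48.

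Because siControl number 1 stood apart, calls are also given without it for the genes and lists where they changed most. When the siControl pair was left out, number accounted for 76.2% of the variance and treatment for 16.1%. Over all loci, 1362 loci (10.1%) were called higher and 734 (5.42%) lower without siControl number 1. That comparison rests on the pairs without siRNA and with siSbsn and has 1 residual degree of freedom. Of the 110 loci chosen by the naming rule, none of the 47 called lost its call in it, and 32 of the others gained one. Leaving out the library without siRNA numbered 1 gave 353 loci higher and 408 lower, and leaving out the library labelled siSbsn number 1 gave 174 and 160. DESeq2's Wald test called 773 loci (6.62%) higher and 803 (6.88%) lower and kept 292 of the 294 calls. A fit over all 12 libraries called 1264 (9.32%) higher and 999 (7.37%) lower.

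**Figure D1:**
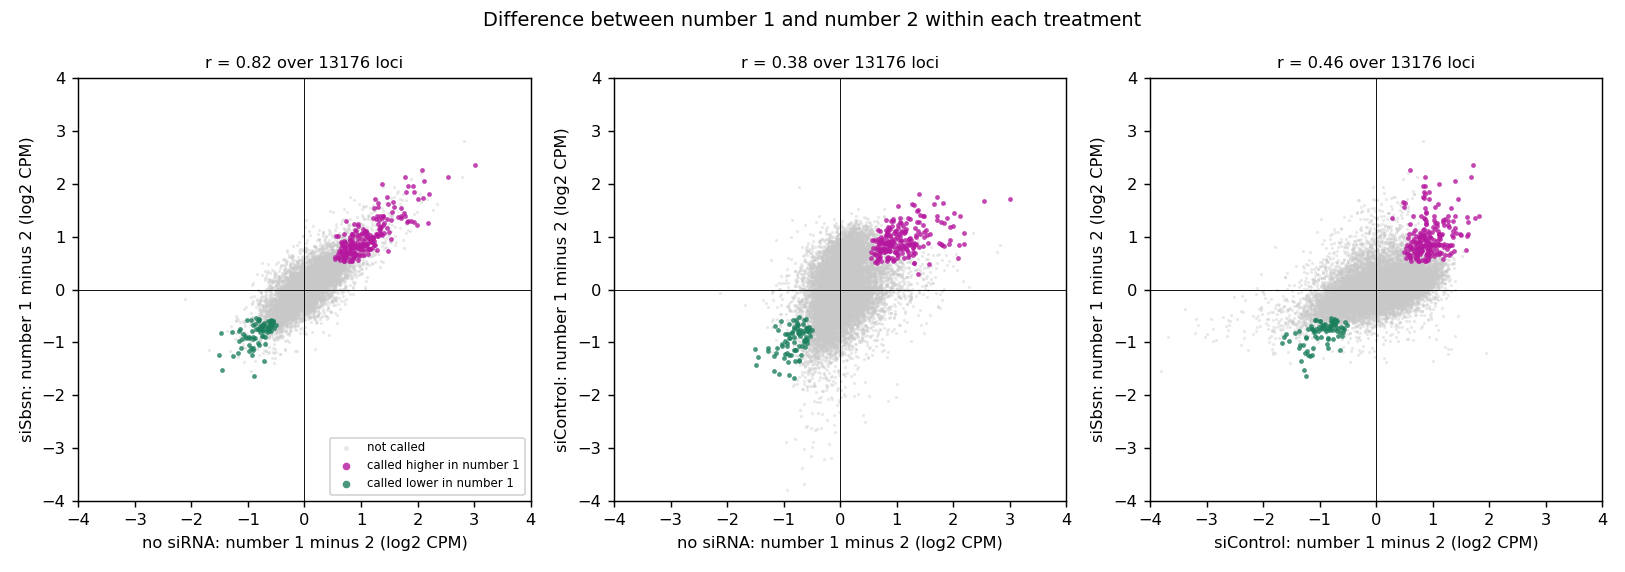
Difference between number 1 and number 2 in log2 CPM within each treatment, 1 point per locus, for the 3 pairings of treatments, with the 210 loci called higher in number 1 and the 84 called lower coloured. The cloud is narrow for no siRNA against siSbsn (r = 0.82) and wide where siControl is on an axis (r = 0.38 and 0.46), and 1 locus lies beyond the axes.

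The loci with the largest difference common to all treatments are described first, beginning with those higher in number 1. *Fabp5*, which carries fatty acids in the epidermis (chromosome 3, 10012585 to 10016610, mm10), was at 200, 187 and 283 CPM in number 1 (no siRNA, siControl and siSbsn) and at 63.0, 60.7 and 109 CPM in number 2. All number 1 libraries lay above all number 2 libraries. Its log2-fold change was 1.55 (SE 0.11, q = 0.0427), one of the 3 smallest p-values of the higher loci. *Them5*, a mitochondrial acyl-CoA thioesterase (chromosome 3, 94342099 to 94347352), was at 25.2, 7.06 and 39.2 CPM in number 1 and at 2.69, 1.80 and 7.20 in number 2, a log2-fold change of 2.57 (SE 0.26, q = 0.0427). The siControl library numbered 1 lay just below the highest number 2 library, so the groups overlapped.

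*Ucp2*, a carrier of the inner mitochondrial membrane, was at 232, 143 and 349 CPM in number 1 and at 67.2, 58.8 and 133 CPM in number 2 (log2 1.49, SE 0.13). *Agpat4*, an acyltransferase of phospholipid synthesis, was at 13.9, 8.09 and 21.2 CPM against 2.82, 2.78 and 4.71 (log2 2.01, SE 0.20). Neither gene's groups overlapped. *Defb1*, the antimicrobial peptide beta-defensin 1, was at 60.5, 49.7 and 83.0 CPM against 18.2, 18.6 and 31.1 (log2 1.52, SE 0.13). *Pinlyp*, a secreted phospholipase A2 inhibitor, differed by 1.79 (SE 0.16) and *Gjb5*, the gap junction protein connexin 31.1, by 1.72 (SE 0.18). *Pdzk1ip1*, *Fam25c*, *Tprg* and *Phyhip* completed the set, with log2-fold changes from 1.54 to 1.62.

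Of the 84 loci lower in number 1, those with the largest common difference follow. *Plcxd2*, which has a phospholipase C domain (chromosome 16, 45959261 to 46010413), was at 23.6, 21.1 and 16.3 CPM in number 1 and at 65.6, 51.6 and 47.9 CPM in number 2, a log2-fold change of -1.44 (SE 0.12, q = 0.0427). *Raph1*, which encodes the actin regulator lamellipodin, was at 264, 174 and 183 CPM against 596, 417 and 423 (log2 -1.21, SE 0.10). For both, every number 1 library lay below every number 2 library. *Ptgs2*, the inducible cyclooxygenase that makes prostaglandin precursors, was at 360, 269 and 224 CPM against 765, 814 and 404 (log2 -1.18, SE 0.16), again without overlap.

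*Tnfsf15*, a cytokine of the TNF family, differed by -1.28 (SE 0.12) and *Exph5*, a Rab27 effector linked to skin fragility, by -1.32 (SE 0.13). *Mdn1*, an ATPase of ribosome assembly, differed by -1.12 (SE 0.12), and the tyrosine kinase *Abl2* by -1.01 (SE 0.12). *Slc26a9*, *Zdbf2*, *Tmem245*, *Ago3* and *Fam129a* were also called lower, at -0.95 to -1.32. With each library's trend on transcript length removed, *Mdn1*, *Tmem245*, *Ago3* and *Fam129a* were no longer called (edgeR, q = 0.052, 0.0699, 0.121 and 0.0585). The called loci differed in transcript length, with a median of 1915 bases for those higher, 7169.5 bases for those lower and 3466 bases for those not called.

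**Figure D2:**
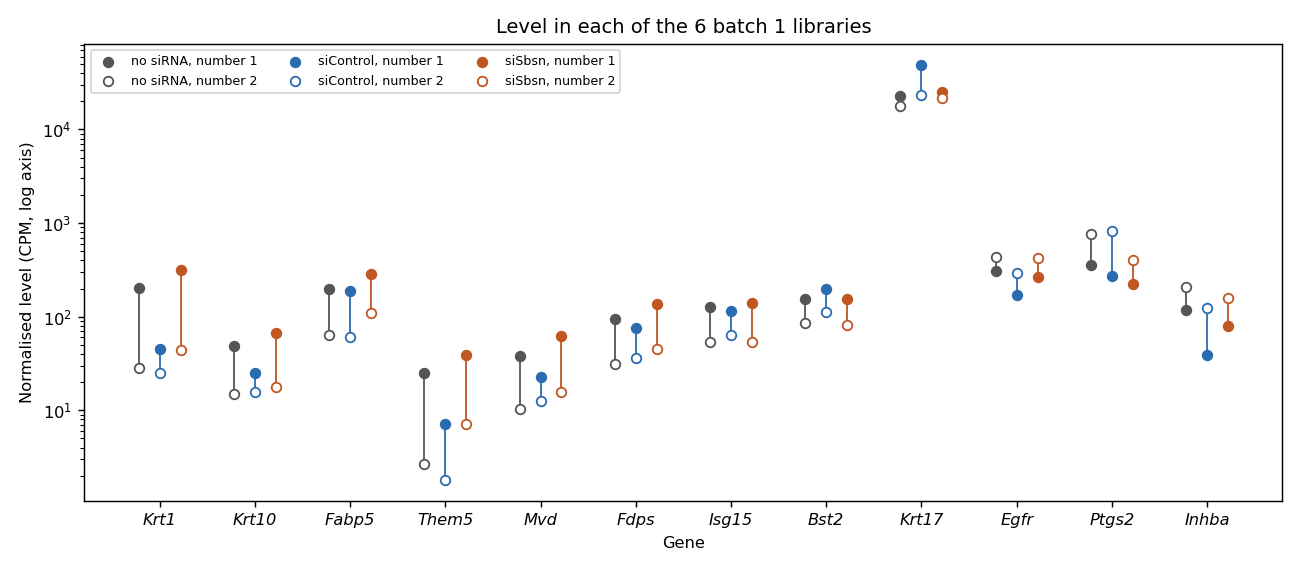
Normalised level (CPM, log axis) of 12 genes in the 6 libraries, filled circles for number 1, open circles for number 2, with a line joining the pair of each treatment. *Krt1* is far higher in number 1 without siRNA (202 against 28.1 CPM) and with siSbsn (316 against 44.3 CPM) than with siControl (45.4 against 25.2 CPM), whereas *Fabp5* and *Bst2* are separated alike in all 3.

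Cholesterol synthesis showed the largest median of the 27 gene lists. It runs from acetyl-CoA through mevalonate and squalene to cholesterol, under transcription factors of the SREBP family. All 22 loci tested had a positive log2-fold change, against 6937 of all 13176 loci, with a median of 0.88 against 0.03. Of the 22, 5 were called higher and 0 lower, against 1.59% and 0.638% of all loci. Of the same 22, 12 were higher in all 3 treatments, as were 28.8% of all loci. The medians within treatments were 1.21 without siRNA, 0.21 with siControl and 1.17 with siSbsn.

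Of the called enzymes, 4 lie between mevalonate and farnesyl pyrophosphate. *Mvk*, mevalonate kinase, was at 55.1, 55.2 and 70.7 CPM in number 1 and at 20.8, 22.5 and 29.9 CPM in number 2 (log2 1.31, SE 0.11, q = 0.0427). *Mvd*, mevalonate decarboxylase, was at 38.4, 22.8 and 62.3 CPM against 10.4, 12.6 and 15.5 (log2 1.59, SE 0.25, q = 0.0479). *Fdps*, farnesyl pyrophosphate synthase, counted together with an overlapping transcript, was at 94.8, 74.9 and 135 CPM against 31.2, 35.9 and 45.1 (log2 1.42, SE 0.15, q = 0.0427). The groups of these 3 genes did not overlap. *Pmvk*, phosphomevalonate kinase, differed by 1.31 (SE 0.14) and *Ebp*, the sterol isomerase of the later pathway, by 0.81 (SE 0.11).

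*Hmgcs1*, which makes HMG-CoA, had larger differences without siRNA and with siSbsn than with siControl, and was not called over all 6 libraries. It was at 419 against 151 CPM without siRNA and at 525 against 209 CPM with siSbsn, but at 135 against 144 CPM with siControl. Without siControl number 1, 21 of the 22 loci were called higher, against 10.1% of all loci, with a median of 1.25. Removing each library's trend on transcript length left the median at 0.90, with 4 called. *Mvk* and *Fdps* kept their calls, and *Sqle* and *Lss* gained one. *Mvd*, *Pmvk* and *Ebp* were no longer called (edgeR, q = 0.0652, 0.058 and 0.062).

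The interferon response list had the second largest median. These genes are switched on by interferons or by RNA sensing, through factors that bind the interferon-stimulated response element. Of 29 loci tested, 26 had a positive value, against 6937 of all 13176. Of the 29, 3 were called higher and 0 lower, against 1.59% and 0.638% of all loci. Of the same 29, 17 were higher in all 3 treatments, as were 28.8% of all loci. The median was 0.69, with 0.79 without siRNA, 0.09 with siControl and 0.60 with siSbsn. *Isg15*, a ubiquitin-like protein (chromosome 4, 156199424 to 156200818), was at 126, 114 and 139 CPM in number 1 and at 53.9, 63.2 and 53.9 CPM in number 2 (log2 1.15, SE 0.14, q = 0.0442). *Irf7*, a transcription factor that amplifies interferon production, was at 83.9, 66.1 and 92.2 CPM against 34.6, 36.3 and 36.4 (log2 1.16, SE 0.14, q = 0.0442). *Bst2*, which tethers viruses to the membrane, was at 154, 200 and 156 CPM against 85.8, 112 and 81.4 (log2 0.88, SE 0.10, q = 0.0427). None of these overlapped between numbers.

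*Oasl2*, an antiviral protein of the OAS family, was at 47.1 against 15.2 CPM without siRNA, 18.4 against 13.4 with siControl and 47.2 against 15.5 with siSbsn, and was not called (log2 1.25, SE 0.26, q = 0.0664). The RNA sensors *Ddx58* and *Ifih1* had log2-fold changes of -0.06 (SE 0.13) and 0.15 (SE 0.19). Without siControl number 1, 22 of the 29 were called higher, against 10.1% of all loci. The immune marker sum was 15.1 against 5.37 CPM without siRNA, 5.01 against 5.60 with siControl and 13.6 against 6.15 with siSbsn, and its part in the interferon values was not tested.

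Promoter windows of both pathways were searched in the RefSeq sequences of GRCm38.p6, which reach from 250 bases before to 50 after each start. The letters GAAANNGAA, from the core of the interferon-stimulated response element, were found on either strand in 13 of the 20 interferon genes that had a promoter entry, against 9.76% of the 27025 genes in the table. The letters TCACNCCAC, which stand for a sterol response element, were found in 1 of 15 cholesterol genes with an entry, against 1.44%. A match is a description of letters and not a site of binding. The windows of the called genes *Isg15* and *Bst2*, of *Ifit1* as an uncalled interferon gene, and of *Hmgcs1*, the only cholesterol gene with a match, are shown 5′ to 3′ on the strand of the gene, with the matched letters of either strand in capitals. They lie at chr4:156200846-156200926 (minus strand), chr8:71537558-71537632 (minus), chr19:34640750-34640843 (plus) and chr13:119690184-119690252 (plus).
Isg15: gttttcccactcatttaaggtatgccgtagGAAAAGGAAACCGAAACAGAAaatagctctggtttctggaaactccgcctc
Bst2: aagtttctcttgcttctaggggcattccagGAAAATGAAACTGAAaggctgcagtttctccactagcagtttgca
Ifit1: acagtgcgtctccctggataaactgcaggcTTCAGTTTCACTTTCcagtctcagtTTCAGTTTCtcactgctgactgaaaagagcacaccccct
Hmgcs1: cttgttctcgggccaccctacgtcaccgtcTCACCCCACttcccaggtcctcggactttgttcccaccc

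The *Isg15* window holds 3 overlapping matches and the *Bst2* window 2, in both cases within 160 bases before the start. *Ifit1*, with 3 matches read on the other strand, was at 51.5 against 19.1 CPM without siRNA, at 24.1 against 20.1 with siControl and at 45.8 against 19.6 with siSbsn (log2 0.98, SE 0.24, q = 0.0783). *Irf7* had a promoter entry and no match.

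Of 22 suprabasal loci tested, 17 had a positive value, against 6937 of all 13176. Of the 22, 5 were called higher and 1 lower, against 1.59% and 0.638% of all loci. The median was 0.57 (0.59 without siRNA, 0.04 with siControl and 0.61 with siSbsn). *Krtdap*, a secreted protein of the differentiating layers, was at 882, 1280 and 1100 CPM in number 1 and at 359, 421 and 548 CPM in number 2 (log2 1.30, SE 0.14, q = 0.0427). *Ly6d*, a surface protein of stratified epithelia, was at 739, 917 and 982 CPM against 277, 343 and 469 (log2 1.30, SE 0.12, q = 0.0427). *Dmkn*, dermokine, differed by 0.75 (SE 0.12) and *Lypd3* by 0.86 (SE 0.12). These 4 genes and *Fabp5* did not overlap between numbers. *Prdm1*, a transcriptional repressor of late differentiation, was called lower, at 30.3, 26.2 and 27.2 CPM against 56.3, 49.7 and 43.2 (log2 -0.83, SE 0.12). Without siControl number 1 the list had a median of 0.73, with 12 called higher and 1 lower, against 10.1% and 5.42% of all loci.

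The suprabasal keratins had larger differences and larger spread. *Krt1* (chromosome 15, 101845426 to 101850786) was at 202 against 28.1 CPM without siRNA, at 45.4 against 25.2 CPM with siControl and at 316 against 44.3 CPM with siSbsn. *Krt10*, its partner, was at 48.3 against 15.1, at 24.8 against 15.6 and at 66.2 against 17.7 CPM. Every number 1 library of *Krt10* lay above every number 2 library, whereas for *Krt1* siControl number 1 and siSbsn number 2 were close, at 45.4 and 44.3 CPM here and in the opposite order, at 46.1 and 46.7, when scaled with all 12 libraries. Neither gene was called over all 6 libraries (log2 2.21, SE 0.43, q = 0.0639 and log2 1.43, SE 0.26, q = 0.0574). Over all 6 libraries DESeq2's Wald test gave q = 0.00677 and q = 4.44e-07. An exact permutation test over all 6 libraries, with 8 swaps of numbers within the 3 treatments, gave a two-sided p of 0.25 for each. That is the smallest this design allows. Without siControl number 1, left out after its values were seen, edgeR called both, at log2-fold changes of 2.84 and 1.80. That fit rests on the pairs without siRNA and with siSbsn and has 1 residual degree of freedom. *Sbsn* itself had a log2-fold change of 0.60 (SE 0.30, q = 0.245), with differences of 0.46, -0.14 and 1.49 in the 3 treatments, and gave an exact permutation p of 0.50. It was called higher by edgeR, at 0.97, in the same fit without siControl number 1.

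The envelope precursors and cross-linking enzymes were divided. Of 47 loci tested, 24 were positive, against 6937 of all 13176. Of the 47, 4 were called higher and 1 lower, against 1.59% and 0.638% of all loci. The median was 0.01 (-0.18 without siRNA, 0.64 with siControl and -0.03 with siSbsn). The balance turned without siControl number 1, with 6 called higher, 14 lower and a median of -0.23. Over all loci 10.1% and 5.42% were called in that fit. Most of those lower were *Lce1* and *Lce3* genes. *Lce1g* had differences of -1.14, 0.93 and -0.89 without siRNA, with siControl and with siSbsn, and *Lce3d* of -0.69, 0.81 and -0.69. With the length trend removed the median of the list was -0.25. *Lor*, loricrin, the main envelope protein, was at 18.7, 29.3 and 19.8 CPM against 8.96, 12.7 and 9.33 (log2 1.12, SE 0.13, q = 0.0427), without overlap. *Tgm5*, a transglutaminase, differed by 1.53 (SE 0.20), and its siControl library numbered 1, at 13.9 CPM, lay below the highest number 2 library. *Sprr2b* and *Sprr1b*, small proline-rich precursors, differed by 1.31 (SE 0.15) and 0.68 (SE 0.10), and counts of *Sprr2* genes are uncertain because reads shared between near-identical copies were dropped. *Tchh*, trichohyalin, was called lower at -0.71 (SE 0.10). *Ivl*, involucrin, had a value of 0.34 (SE 0.12, q = 0.141) and *Flg*, filaggrin, of -1.13 (SE 0.28, q = 0.0802).

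Among 27 barrier lipid genes, 1 was called higher over all 6 libraries, against 1.59% of all loci. Without siControl number 1, 10 were called higher and 1 lower, against 10.1% and 5.42%. DESeq2 called 4 higher and 1 lower, against 6.62% and 6.88%. *Cyp4f39*, a fatty acid omega-hydroxylase of acylceramide synthesis, was at 93.5, 68.4 and 114 CPM in number 1 and at 48.5, 47.0 and 65.4 CPM in number 2 (log2 0.76, SE 0.12, q = 0.0490). The list was positive at 23 of 27 loci, against 6937 of all 13176, with a median of 0.32. *Elovl6*, a fatty acid elongase, had a value of 1.10 (SE 0.23, q = 0.0671) and *Sptlc3*, a subunit of serine palmitoyltransferase, of 0.84 (SE 0.16, q = 0.0592).

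Keratins of basal and activated keratinocytes leaned the same way with few calls. *Krt5* was at 13200, 17700 and 14200 CPM in number 1 and at 8070, 9890 and 10000 CPM in number 2 (log2 0.69, SE 0.12, q = 0.0558). *Krt14* was at 15800, 28400 and 17500 CPM against 11800, 14800 and 14300 (log2 0.55, SE 0.16, q = 0.102). *Krt6b*, a wound keratin, was called higher, at 358, 414 and 387 CPM against 223, 260 and 239 (log2 0.68, SE 0.09, q = 0.0448). *Krt6a*, *Krt16* and *Krt17* had values of 0.55, 0.64 and 0.55, with q-values of 0.0761, 0.0801 and 0.137. *Krt17* was at 22800 against 17800 CPM without siRNA, 49100 against 23100 with siControl and 25400 against 21900 with siSbsn. Of the 6 simple epithelial keratins, none of which reached an unadjusted p under 0.05 or was called by DESeq2 or limma-voom, *Krt8*, *Krt18* and *Krt7* had values of 0.32, 0.13 and -0.07, with q-values of 0.248, 0.694 and 0.854, and the last 2 changed sign under other settings.

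Adhesion genes were divided. The basement membrane laminin subunit *Lama5* was called lower, at 57.9, 42.3 and 51.7 CPM against 110, 80.3 and 82.9 (log2 -0.84, SE 0.11, q = 0.0448), and was the only call among 16 basal and hemidesmosome loci. *Itga2*, a collagen-binding integrin subunit, was at 14.4 against 23.4 CPM without siRNA, 0.78 against 12.8 with siControl and 11.7 against 15.2 with siSbsn (log2 -1.37, SE 0.65, q = 0.219). Among 18 tight and gap junction loci, *Gjb5*, described above, was called higher, at 8.88, 10.9 and 12 CPM against 2.17, 3.16 and 4.62. *Tjp1*, the tight junction scaffold ZO-1, had a value of -0.85 (SE 0.21, q = 0.0795). None of 13 desmosome loci was called by edgeR (5 at an unadjusted p under 0.05, 3 called by DESeq2 and 0 by limma-voom). Of all 13176 loci, 3873 had such a p, DESeq2 called 1576 and limma-voom 363. The desmosome values were -0.64 for *Dsg3*, 0.61 for *Dsc1*, -0.57 for *Dsg2* and -0.22 for *Dsp*, which was 0.14 with the length trend removed.

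Of the genes of EGF receptor signalling most had a negative value. Of 21 EGF ligand and ERK feedback loci, 13 were lower in all 3 treatments (27.1% of all loci) and 1 higher (28.8% of all loci), with a median of -0.27. *Egfr*, the receptor, was the 1 called, at 308, 172 and 264 CPM against 435, 294 and 423 (log2 -0.65, SE 0.11, q = 0.0495). *Dusp4*, an ERK phosphatase that feeds back on the pathway, had a value of -0.82 (SE 0.21, q = 0.0830) and *Erbb3* of -1.01 (SE 0.42, q = 0.178). *Erbb3* was at 17.8 CPM in siControl number 1 and at 92.9 to 155 CPM in the other 5 libraries.

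Cytokines went both ways. Of 22 loci, 2 were called higher and 1 lower, against 1.59% and 0.638% of all loci. *Tslp*, an epithelial alarm cytokine that acts on dendritic cells, was at 202, 178 and 264 CPM in number 1 and at 73.2, 76.4 and 104 CPM in number 2 (log2 1.35, SE 0.11, q = 0.0427). *Il18*, a cytokine stored in keratinocytes, had a log2-fold change of 0.99 (SE 0.15, q = 0.0479), without overlap. *Il1a*, another stored cytokine, was lower, at 42.7, 55.2 and 24.6 CPM against 120, 150 and 43.5 (log2 -1.26, SE 0.17, q = 0.0448), and its groups overlapped because the level with siSbsn was low in both numbers. The neutrophil chemokine *Cxcl1* had a value of -1.07 (SE 0.20, q = 0.0592). *Inhba*, a subunit of activin A chosen after its values were seen, was called lower, at 117, 39.1 and 78.9 CPM against 207, 125 and 160 (log2 -1.17, SE 0.18, q = 0.0479). Of 20 AP-1 and early response loci edgeR called 0 (6 at an unadjusted p under 0.05, 6 by DESeq2, 0 by limma-voom). The same counts over all 13176 loci were 3873, 1576 and 363. *Atf3* had a value of -0.80, *Fosl2* of -0.63 and *Jund* of 0.60, with q-values of 0.104, 0.0895 and 0.0714.

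Of 23 NRF2 targets, a list of stress genes, 1 was called higher and 1 lower, against 1.59% and 0.638% of all loci. *Nqo1*, a quinone reductase induced by NRF2, was at 14, 15.4 and 18.1 CPM against 7.26, 8.37 and 8.05 (log2 1.00, SE 0.14, q = 0.0448), without overlap. *Txnrd1*, thioredoxin reductase and another NRF2 target, was called lower, at 127, 139 and 109 CPM against 223, 233 and 161 (log2 -0.71, SE 0.11, q = 0.0479). *Hmox1*, heme oxygenase, had a value of -0.92 (SE 0.22, q = 0.0770). Over the list the median was 0.37. Without siControl number 1 there were 5 called higher and 2 lower, against 10.1% and 5.42% of all loci.

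Of 27 hypoxia and glycolysis loci, *Aldoc*, an aldolase, was called higher at 1.56 (SE 0.22, q = 0.0469) and *Pfkl*, liver phosphofructokinase, at 0.91 (SE 0.15), with q just under 0.05. The glucose transporter *Slc2a1* was at 125 against 56.9 CPM without siRNA, at 70.7 against 61.9 with siControl and at 165 against 65.4 with siSbsn (log2 0.89, SE 0.23, q = 0.0855). Over all 6 libraries this list had 2 called higher and 0 lower, against 1.59% and 0.638% of all loci. Without siControl number 1 it had 10 and 2, against 10.1% and 5.42%. By DESeq2 it had 7 and 2, against 6.62% and 6.88%. *Hspb1*, a small heat shock protein of differentiating keratinocytes, was called higher, at 293, 534 and 377 CPM against 165, 251 and 207 (log2 0.93, SE 0.11, q = 0.0427). It was the 1 call among 13 heat shock loci, against 2.23% of all loci called either way. None of 31 unfolded protein and integrated stress loci was called by edgeR, with values of -0.53 for *Vldlr*, -0.50 for *Dnajb9* and 0.48 for *Ddit4*. In that list 6 were at an unadjusted p under 0.05, 2 were called by DESeq2 and 0 by limma-voom. These were smaller shares than the 3873, 1576 and 363 of all 13176 loci.

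Proteases and their inhibitors gave 4 calls of 29, all higher, against 1.59% of all loci called higher. *Klk5*, a kallikrein that starts shedding of the outer layer, was at 48.7, 61.1 and 62.1 CPM against 25.7, 26.2 and 35.4 (log2 0.98, SE 0.13, q = 0.0448). *Klk13* differed by 0.92 (SE 0.12), the cystatin *Cst6* by 0.94 (SE 0.15) and *Wfdc5*, with a protease inhibitor domain, by 1.83 (SE 0.27). *Tmprss4*, a membrane serine protease, had a value of 1.61 (SE 0.29, q = 0.0576). This list had 8 calls, all higher, without siControl number 1, against 10.1% of all loci called higher. Of 28 YAP, TGF-beta and matrix loci, *Tgfbi* and *Timp1* were called higher, at 1.76 (SE 0.28) and 0.95 (SE 0.15), while the list's median was -0.13. That median was 0.08, with 6 called higher, without siControl number 1, where 10.1% of all loci were called higher. *Vim*, vimentin, had a value of 0.80 (SE 0.17, q = 0.0682). *Col1a1*, the fibroblast marker of highest count, was at 686 against 365 CPM without siRNA, 343 against 320 with siControl and 851 against 361 with siSbsn (log2 0.75, SE 0.22, q = 0.104), and its part in the matrix values was not tested.

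Proliferation genes gave no call by edgeR among 24 DNA replication loci and 25 mitosis loci, with medians of -0.01 and -0.07. At an unadjusted p under 0.05 there were 2 and 4, DESeq2 called 1 in each list and limma-voom 0. Both lists thus lay below the shares of all 13176 loci, where the counts were 3873, 1576 and 363. *Mki67*, a marker of cycling cells, was at 77.4, 39.1 and 61.5 CPM in number 1 and at 97.9, 56.6 and 79.2 CPM in number 2 (log2 -0.41, SE 0.11, q = 0.0864), and *Pole*, a DNA polymerase subunit, had a value of -0.54 (q = 0.0712). *Anln* and *Cenpf* had values of -0.67 and -0.50, *Pola1* of -0.53 and *Ccne1* of 0.25. None of 18 p53 targets, 16 Notch pathway loci or 12 calcium and ion transport loci was called by edgeR. At an unadjusted p under 0.05 there were 8, 8 and 5, DESeq2 called 4, 4 and 5, and limma-voom 0, 0 and 2. Unlike the proliferation lists, all 3 lists had larger shares at that p and by DESeq2 than the 3873 and 1576 of all 13176 loci. Among them *Trp53inp1* and *Eda2r* had values of -0.63 and -0.61, *Perp* of 0.54, *Nrarp*, a Notch feedback inhibitor, of 0.82, *Rfng* of 0.57 and *Notch2* of -0.52. The water and glycerol channel *Aqp3* had a value of 0.88 (q = 0.0546), *Scnn1a* of 0.82 and *Slc5a1* of 0.64.

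Without siControl number 1, where 10.1% of all loci were called higher and 5.42% lower, further lists had calls by edgeR. The basal and hemidesmosome list had 3 of 16 called higher and 2 lower, and the desmosome list 3 of 13 higher. The Notch list had 3 of 16 higher and the calcium and ion transport list 5 of 12 higher. The cytokine list had 3 of 22 higher and 4 lower, and the EGF list 4 of 21 lower. The early response list had 1 of 20 higher and 3 lower, the p53 list 1 of 18 higher and 2 lower. The unfolded protein list had 1 of 31 higher and 2 lower. Of 14 S100 genes 4 were called higher and 1 lower, and of 11 wound keratins and alarmins 2 and 1. Of 71 ribosomal proteins 3 were called higher, of 68 respiratory chain loci 1 higher, and of 24 DNA replication loci 1 lower. These last 3 lists lay below both shares of all loci.

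**Figure D3:**
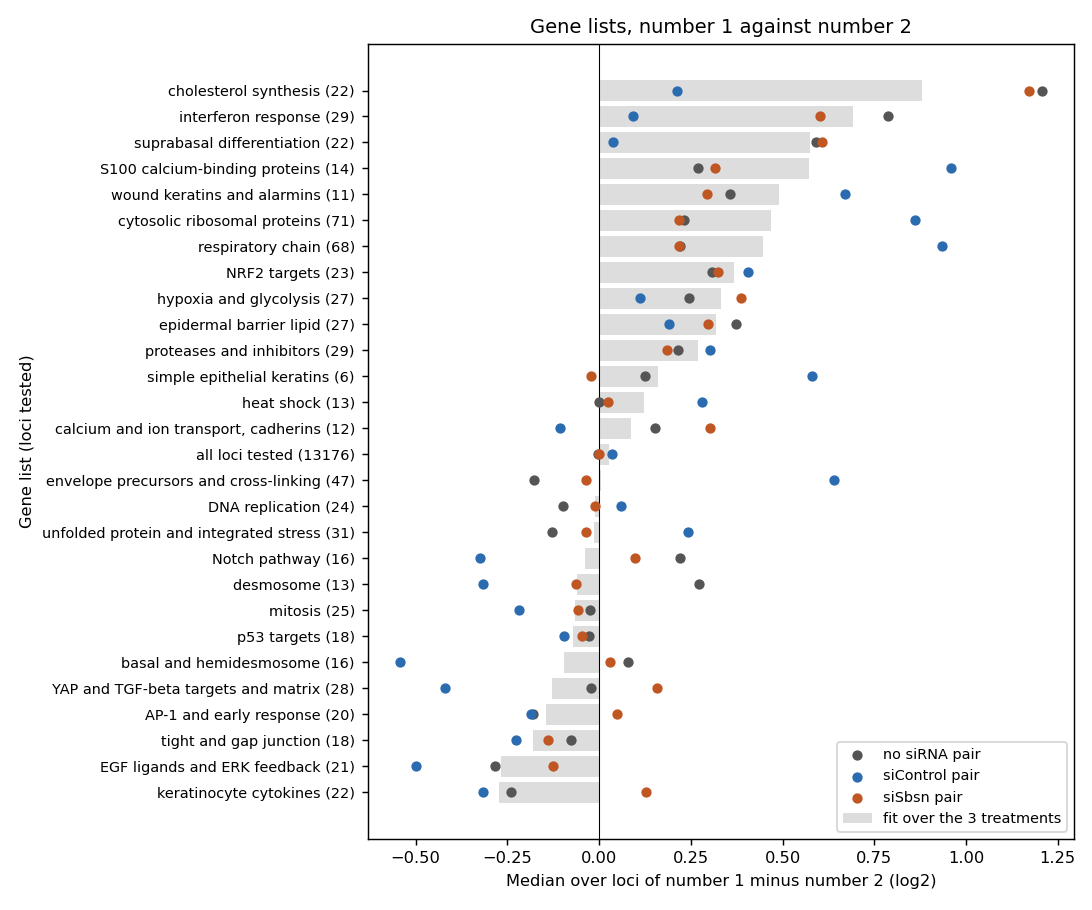
Median of number 1 minus number 2 on the log2 scale for 27 gene lists and for all loci tested, with the number of loci in brackets, as bars for the fit over all treatments and points for each treatment's pair. The pairs without siRNA and with siSbsn lie near 1.2 for cholesterol synthesis where siControl lies at 0.21, and the order is turned round for ribosomal proteins, at 0.23 and 0.22 against 0.86.

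The cytosolic ribosomal proteins and the respiratory chain had a positive value at nearly every locus without a call by edgeR or limma-voom. At an unadjusted p under 0.05 were 33 and 34 loci, and DESeq2 called 11 and 17, all higher. For all 13176 loci the counts were 3873 at such a p and 773 called higher by DESeq2. Of 71 ribosomal protein loci 70 were positive, with a median of 0.47, and of 68 respiratory chain loci 67 were positive, with a median of 0.45. Positive loci were 6937 of 13176 among all tested. The within-treatment medians of the ribosomal proteins were 0.23, 0.86 and 0.22 without siRNA, with siControl and with siSbsn, and those of the respiratory chain were 0.22, 0.94 and 0.22. *Rps20*, of the small ribosomal subunit, was at 254 against 188 CPM without siRNA, 523 against 223 with siControl and 257 against 202 with siSbsn (log2 0.67, SE 0.19, q = 0.0979). *Rplp2* and *Rpl37a* had values of 0.75 and 0.70. *Ndufa4*, of the cytochrome c oxidase complex, was at 174 against 134, at 362 against 177 and at 204 against 138 CPM (log2 0.66, SE 0.15, q = 0.0716), and *Uqcr11* and *Atp5k* had values of 0.83 and 0.78. Of 14 S100 genes, *S100a4* was called (log2 0.78, SE 0.11), and *S100a6*, *S100a3* and *S100a9* had values of 0.73, 0.77 and 0.68. With the length trend removed *S100a4* was at 0.41 and no longer called by edgeR (q = 0.141).

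Short transcripts were higher and long transcripts lower in number 1, mostly in the siControl pair. In the shortest of 10 bins of loci, with a median transcript length of 1035 bases, the median difference was 0.67 with siControl, 0.13 without siRNA and 0.17 with siSbsn. In the longest bin, with a median of 8392.5 bases, it was -0.61, -0.18 and -0.26. Over all loci with a length, Spearman's rho between difference and length was -0.61 with siControl, -0.22 without siRNA and -0.33 with siSbsn, a description across loci of the same libraries. With each library's length trend removed, 161 loci were called higher and 102 lower, of which 149 were among the 294. The medians of the ribosomal proteins and the respiratory chain were then 0.15 and 0.12, those of the S100 genes and the wound keratins 0.20 and 0.18, and those of suprabasal differentiation and the interferon response 0.47 and 0.51. Calls among the interferon loci went from 3 to 1, with *Irf7* kept (edgeR, q = 0.0419) and *Isg15* and *Bst2* at q = 0.0877 and q = 0.0898, and those higher among the suprabasal loci went from 5 to 3. Of the 47 called loci chosen by the naming rule, 18 were no longer called, among them *Egfr*, at -0.27 in place of -0.65, *Lama5* at -0.43, *Krt6b* at 0.48, *Mvd* at 1.34, *Pmvk* at 0.98, *Nqo1* at 0.70 and *Hspb1* at 0.56.

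**Figure D4:**
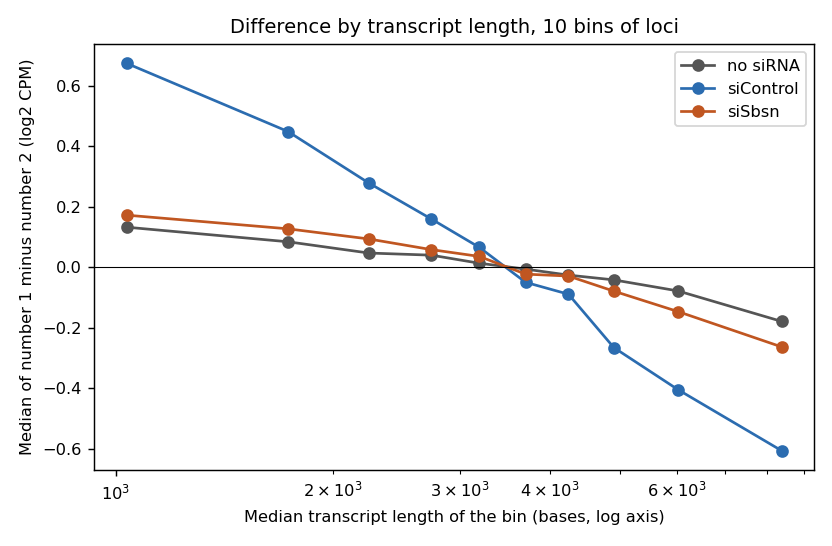
Median of number 1 minus number 2 (log2 CPM) in 10 bins of loci by transcript length (log axis), 1 line per treatment. The siControl line falls from 0.67 to -0.61, and the lines without siRNA and with siSbsn from 0.13 to -0.18 and from 0.17 to -0.26.

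The number also bears on the comparison of treatments within the batch. Between the 2 siSbsn and the 2 siControl libraries of batch 1, edgeR called 0 of 12899 loci (0%), with 1512 at an unadjusted p under 0.05, when the number was left out of the model. With the number as a replicate block, 1227 loci (9.51%) were called higher in the libraries labelled siSbsn and 581 (4.5%) lower, from a fit with 1 residual degree of freedom. DESeq2's Wald test without the block called 122 higher and 27 lower. Without siControl number 1, edgeR called 2 higher and 3 lower, and without siControl number 2, 1700 and 1699. Because the library labelled siSbsn number 1 had more *Sbsn* than the controls, these directions follow the labels only.

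The called loci were also followed into batch 2, on a scale common to all 12 libraries. The mean log2 CPM of the 210 loci called higher minus that of the 84 called lower was -0.65, -0.18 and -0.01 in the number 1 libraries without siRNA, with siControl and with siSbsn, and -2.59, -2.09 and -1.85 in number 2. The 6 batch 2 libraries lay lower than all of these, from -3.58 to -2.90. On the same scale *Mvk* was at 56.0 to 74.9 CPM in number 1, at 21.9 to 31.5 in number 2 and at 12.3 to 16 in batch 2. *Isg15* was at 116 to 148, at 56.9 to 66.2 and at 27.1 to 38.1 CPM. *Krt1* was at 46.1 to 335 CPM in number 1, at 26.4 to 46.7 in number 2 and at 26.7 to 61.4 in batch 2, and all 3 ranges overlapped, with siControl number 1 alone of the number 1 libraries within the others. *Ptgs2* did not continue the order, at 237 to 380 CPM in number 1, 426 to 853 in number 2 and 294 to 450 in batch 2. Nor did *Krt10*, which was not called, at 25.2 to 70.2, 15.9 to 18.7 and 52.3 to 73.8 CPM. The same held for *Slc26a9*, called lower, at 8.72 to 12.1, 16.9 to 25.2 and 3.18 to 3.96 CPM. The loci were chosen on batch 1, and batch and level cannot be told apart between the batches.

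**Figure D5:**
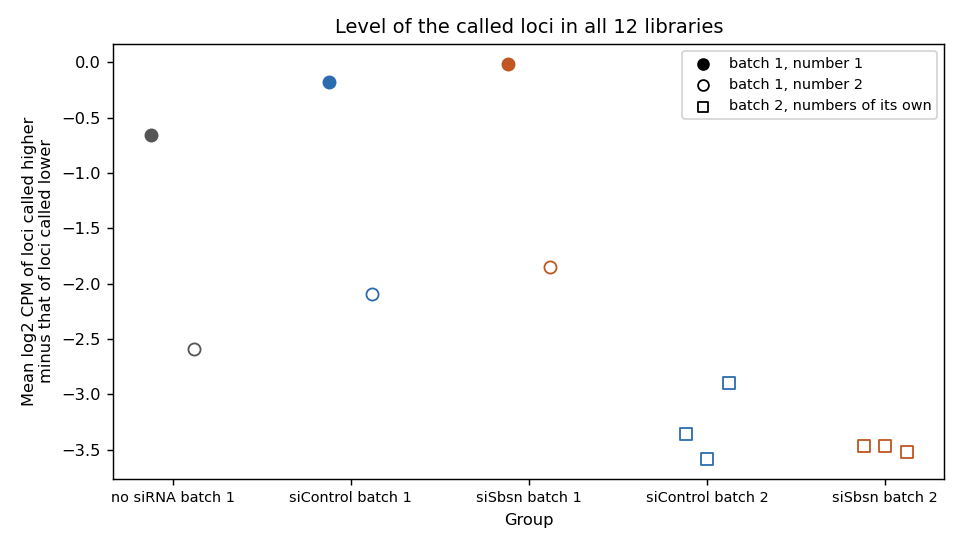
Mean log2 CPM of the loci called higher in number 1 minus that of the loci called lower, for each of the 12 libraries by group, with filled circles for number 1 and open circles for number 2 of batch 1 and squares for batch 2. Number 1 lies at -0.65 to -0.01, number 2 at -2.59 to -1.85 and batch 2 at -3.58 to -2.90, and since batch 1 chose the loci its separation is a description.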

How the data were processed

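The authors aligned RNA-Seq reads of differentiating keratinocyte cultures to mm10 with STAR, kept uniquely aligned reads and counted them by gene in the UCSC KnownGene set. The deposited table holds raw whole-number counts for 21947 loci, of which 4802 join several gene names. Use of strand in counting: not given in the sources used here. Dropping multiply aligned reads lowers genes with near-identical copies. Coordinates are printed after adding 1 to the deposited starts.

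Counts of the 6 batch 1 libraries were normalized by TMM, filtered with filterByExpr and fitted in edgeR 4.0.16 (R 4.3.3), by its quasi-likelihood method, with terms for treatment and number. Standard errors were derived from the log2-fold change and the F statistic (size of the change over the root of F). CPM use the effective library size, and within-treatment differences are of log2(CPM + 0.5). Values across all 12 libraries use TMM factors of those 12. Transcript length is that of the longest annotated transcript of the gene and was found for 90.2% of the loci in the table. DESeq2 1.42.0 and limma 3.58.1 (voom) were alternatives, beside other size factors, no filter, number alone, all 12 libraries, removal of the trend on transcript length and leaving out each library. Tested on simulated counts of this comparison (13073 loci), edgeR recovered 91 of 100 loci given a log2 change of 1, with 2 false calls. It recovered 100 of 100 given a log2 change of 2. In the measured counts *Krt1*, at a log2-fold change of 2.21, and *Tmprss4*, at 1.61, were not called. Their siControl difference stood apart from that of the other treatments, by -1.99 and -1.27. *Mvd* and *Wfdc5* also stood apart and were called. The simulated recovery is thus no measure of detection at loci where the treatments differ, which was not tested.

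The numbers were treated as pairing the libraries because the within-treatment differences correlated at 0.38, 0.82 and 0.46 in the 3 pairs of treatments. The labels do not say that a number marks a shared source. Libraries of a pair differed by more than counting noise (chi-square per degree of freedom of 84.3 or more). An interaction of number and treatment leaves no residual degrees of freedom, so only the siControl difference against the other 2 treatments was tested, a choice made after seeing the data. The members, the gene lists and the rule for naming loci were chosen with earlier results of these data known. The rule names up to 12 called loci each way with the largest smallest difference over treatments at a mean of 5 CPM or more, the 3 smallest p-values each way, 12 keratinocyte genes, and the 3 members of each list with the largest change. Of the list symbols, 51 had no locus of their own and were left out. Genes named outside this rule, such as *Hmgcs1* and *Ifit1*, were chosen after their values were seen. The values of some genes are not reported here.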

Additional observations from a re-analysis of the deposited data

Results flagged for a closer look

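The difference between number 1 and number 2 within siControl was compared with that of the pairs without siRNA and with siSbsn, in a fit added after siControl number 1 was seen to stand apart. This fit leaves 1 residual degree of freedom, and in it 1881 loci had a larger and 1959 a smaller value with siControl, of 13571 tested at the same thresholds. Of the 110 named loci, 48 differed between siControl and the other treatments, 31 with a lower value in siControl and 17 with a higher one. The values that follow are the siControl difference minus that of the other treatments on the log2 scale, so that -1.99 for *Krt1* stands beside within-treatment differences of 2.83, 0.84 and 2.82.

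For suprabasal, desmosomal and envelope genes they were -1.99 for *Krt1*, -1.13 for *Krt10*, -2.10 for *Dsc1*, -1.33 for *Dsg3*, -0.59 for *Dsp*, -1.12 for *Sbsn* and -1.39 for *Flg*. For other keratins they were 0.60 for *Krt16*, 0.59 for *Krt8*, 0.72 for *Krt18*, 0.94 for *Krt7*, 0.58 for *Krt14* and 0.80 for *Krt17*. For lipid synthesis they were -1.09 for *Mvd*, -0.54 for *Fdps*, -0.96 for *Elovl6* and -0.69 for *Agpat4*. For interferon, hypoxia, NRF2 and heat shock genes they were -1.16 for *Oasl2*, -1.05 for *Slc2a1*, -1.21 for *Pdk1*, 0.99 for *Hmox1*, 0.57 for *Cbr3* and -0.54 for *Hsp90aa1*. For signalling genes they were -2.01 for *Erbb3*, -0.89 for *Dusp4*, 0.92 for *Atf3*, -0.71 for *Fosl2*, -0.63 for *Ptgs2*, -0.61 for *Notch2* and -0.54 for *Nrarp*. For adhesion, matrix and protease genes they were -3.49 for *Itga2*, -0.95 for *Tjp1*, -1.08 for *Tgfbi*, -0.60 for *Vim*, -1.13 for *Wfdc5* and -1.27 for *Tmprss4*. For proliferation and ion transport they were -0.68 for *Pola1*, -0.61 for *Anln*, -0.78 for *Scnn1a* and -0.98 for *Slc5a1*. For respiratory chain, ribosomal and S100 genes they were 0.79 for *Uqcr11*, 0.87 for *Atp5k*, 0.56 for *Ndufa4*, 0.62 for *Rplp2*, 0.64 for *Rpl37a*, 0.83 for *Rps20*, 0.99 for *S100a3* and 0.68 for *S100a6*.

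In *Krt7*, *Dsc1*, *Slc5a1* and *Sbsn* the siControl pair had the opposite sign to both other pairs. The siControl pair also had the strongest trend on transcript length, and the part of that trend in these differences was not tested.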

How the results depend on the processing

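The count of loci called between the numbers, 210 higher and 84 lower in number 1, changed by over 1.5 times under several alternatives. It was 424 and 257 with no filter on low counts, 773 and 803 with DESeq2's Wald test, 1264 and 999 in the fit over all 12 libraries, and 0 and 0 with number alone and no treatment block, where 2009 loci had an unadjusted p under 0.05. Leaving out each library in turn gave 174 to 1380 higher and 160 to 734 lower. Leaving out either library of a treatment removes that treatment from the comparison. DESeq2 size factors gave 172 and 79, limma-voom 254 and 109, and no limit on the fold change 210 and 84. The 294 called loci had the same direction in every alternative except number alone, where 292 did. For siSbsn against siControl in batch 1, against 0 and 0, the replicate block gave 1227 higher and 581 lower, DESeq2's Wald test 122 and 27, and leaving out each library 2 to 1700 higher and 0 to 1699 lower. The pairing of the numbers thus changed that count, and the block is part of the fit between the numbers. The share of variance by number was 76.2% without the siControl pair, and between 31.7% and 35.5% in the other alternatives. With a difference over 0.5 required in each treatment, 379 loci were higher and 255 lower in all 3, in place of 3800 and 3577. Of the 110 named loci, 107 kept their direction in all 13 alternatives. *Krt18* changed sign to -0.18 with the length trend removed and ranged from -0.12 to 0.36 with 1 library left out, below 0 without either siControl library. *Krt7* was at 0.065 with number alone and ranged from -0.39 to 0.14 with 1 library left out, above 0 without either library that had no siRNA or siSbsn. *Dsp* was at 0.14 with the length trend removed. Total counts were at least 30724400 in each library, and the libraries of each pair differed by far more than counting noise. How the number of calls depends on depth was not tested.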

Other observations

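The locus that joins *Xist* and its antisense partner *Tsix*, long RNAs of the X chromosome of which *Xist* is made in female cells, was at 330, 114 and 237 CPM in number 1 and at 630, 274 and 558 CPM in number 2 (no siRNA, siControl and siSbsn, on the scale of all 12 libraries), and at 697 to 1290 CPM in batch 2. Of the Y-linked genes, *Eif2s3y* was at 32.8 to 38.7 CPM in number 1 and at 35.4 to 35.9 in number 2, and *Ddx3y* at 18.1 to 30.2 and at 28 to 32.8. The labels give no sex, and reads of *Xist* and *Tsix* cannot be told apart here.

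Other called loci outside the lists, chosen after their values were seen, included *Krt79*, a keratin of hair follicle and gland ducts, at 43.0, 15.4 and 60.8 CPM in number 1 and at 11, 8.21 and 15.2 CPM in number 2 (log2 1.64, SE 0.25), and *Calm4*, a calcium-binding protein of the epidermis, at 112, 110 and 144 CPM against 44.8, 48.5 and 57.2 (log2 1.28, SE 0.11). *Acat2*, which joins acetyl-CoA units at the entry to the mevalonate pathway, was at 38.5, 22.1 and 53.7 CPM against 10.8, 12 and 14.6 (log2 1.54, SE 0.23). *Kmt2d*, a histone methyltransferase of enhancers, was lower, at 115, 43.2 and 92.3 CPM against 191, 91.6 and 170 (log2 -0.90, SE 0.12), and *Kmt2a* differed by -0.92 (SE 0.11). *Lif*, a cytokine, differed by -0.82 (SE 0.11) and the vessel-constricting peptide gene *Edn1* by -0.85 (SE 0.12).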
